A study of Mus musculus with 9 samples.

Results

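The genes described here are 10 regulators of the epithelial-mesenchymal transition, matched by symbol among the 28059 Entrez gene IDs of the deposited table, and all 10 were found. They comprise 7 drivers of the mesenchymal state (Snai1, Snai2, Twist1, Twist2, Zeb1, Zeb2 and Prrx1) and 3 guardians of the epithelial state (Grhl2, Ovol1 and Esrp1). RNA was sequenced from YAMC cells, a mouse line listed under small intestine in the labels, whose name stands for young adult mouse colon; they carry a temperature-sensitive immortalizing gene. The design asks which transcripts change when Cdk8, a kinase of the Mediator complex, is knocked out by CRISPR. The 3 groups, with 3 libraries each, were parental cells (genotype wildtype), knockout clone 1 and knockout clone 19 (both Cdk8 -/-). All cells were kept at 32 °C and taken while growing logarithmically. Each clone is 1 isolate of the line. For want of a clone with intact Cdk8, effects of the knockout and of deriving a clone cannot be told apart here.

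In the epithelial-mesenchymal transition, cells give up junctions and apical-basal polarity and take on a motile, matrix-producing state. The zinc finger factors of the SNAI and ZEB families repress epithelial genes such as E-cadherin by binding E-box sequences in their promoters, and the bHLH factors of the TWIST family and the homeobox factor PRRX1 drive mesenchymal programmes. GRHL2 and OVOL1 oppose these factors, and ESRP1 sets epithelial splice forms. In the normal gut the drivers belong to stromal cells and the guardians to the epithelium.

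The libraries held an estimated 23.1 to 43.9 megareads, and between 17974 and 18907 genes had a value above 0. Values are RPKM (reads divided by gene length in kilobases and by megareads), which can be compared between genes because they are per length. Cdk8 RNA was 17.5 to 17.7 RPKM in parental cells and 10.3 to 11.6 RPKM in the 6 knockout libraries, so it was lower but not lost. Of 10 markers of intestinal epithelium, 9 were below the filter of 1 RPKM in 3 libraries, among them Vil1 (0.0873 to 0.168 RPKM), Lgr5 and Muc2, and Cdx2 and Alpi were at 0 throughout. The 14 mesothelial markers summed to 1770 to 1780 RPKM in parental cells and to 3090 to 3180 RPKM in the clones. The 10 fibroblast markers summed to 637 to 676 and 487 to 574 RPKM, where Col1a1 alone went from 375 to 195 and 151 RPKM. More of the markers above the filter moved with each sum than against it. Among those against it, Msln went from 111 to 82.6 and 101 RPKM and Dcn from 47.1 to 84.5 and 105 RPKM in clone 1 and clone 19. Of 7 immune and 5 endothelial markers, 1 each passed the filter (Cd14 and Kdr), Cd3e was at 0 throughout and Ptprc and Cdh5 were at 0 or close to it. Of 6 smooth muscle markers 3 passed. The 6 summed to 335 to 346 RPKM in parental cells, 467 to 483 in clone 1 and 434 to 447 in clone 19. Most of this was Acta2 (258, 364 and 357 RPKM), while Actg2 fell from 1.88 to 1.38 and 0.975 RPKM. The part of these cell states in the results was not tested.

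Parental cells expressed all 7 drivers, while the guardians were barely detected. Twist2 (16.6 ± 0.808 RPKM, SD, n = 3), Snai2 (16.2 ± 0.141) and Twist1 (15.6 ± 0.698) led, and their libraries overlapped. Snai1 (6.56 ± 0.0851), Zeb1 (5.91 ± 0.260) and Zeb2 (5.56 ± 0.132) followed in this order without overlap between neighbours, and Prrx1 stood at 1.17 ± 0.105 RPKM. Ovol1 (0.251 ± 0.0833) and Grhl2 (0.0423 ± 0.0191) came far below them, and Esrp1 had 1 read in all parental libraries together. Among genes with a value above 0 in parental cells, Twist2 lay at percentile 75.9, Snai1 at 59.5, Prrx1 at 40.4 and Grhl2 at 18.7.

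**Figure D1:**
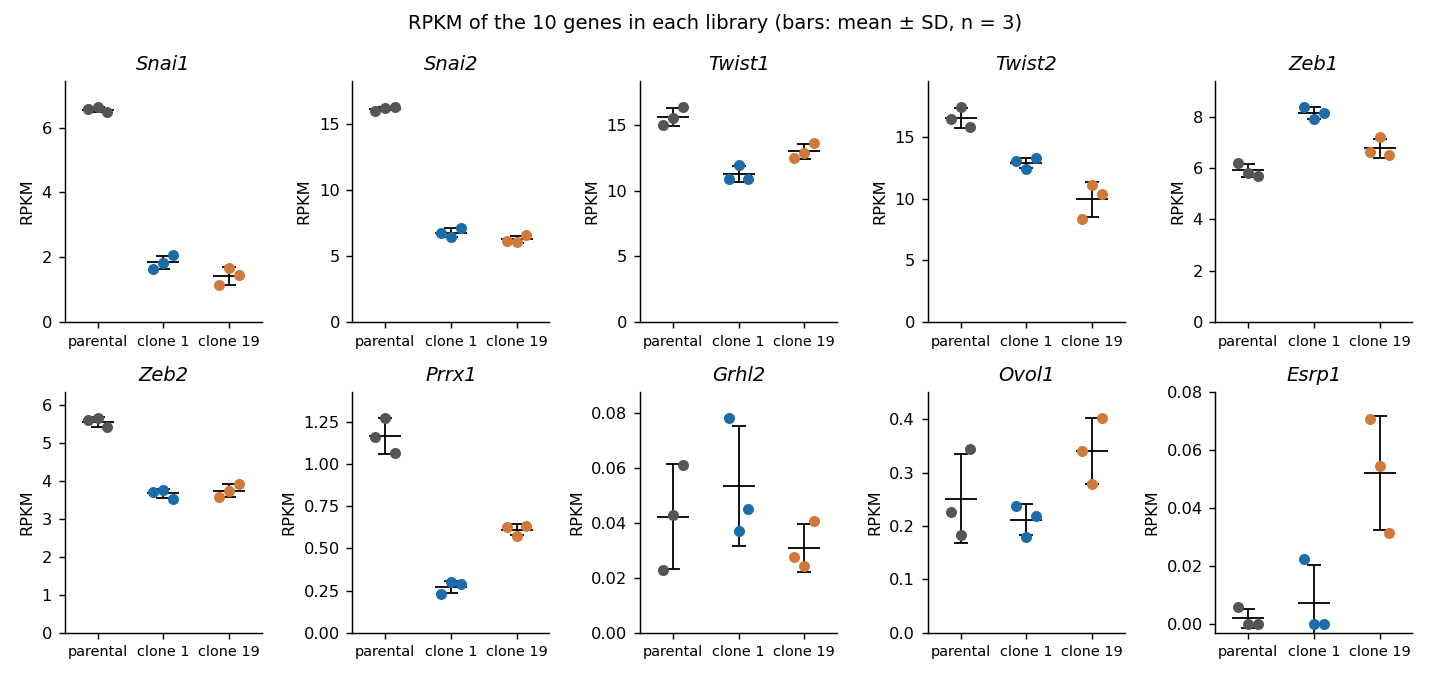
RPKM of each of the 10 genes (vertical axes, 1 scale per gene, starting at 0, or just below it for Esrp1) in parental cells, clone 1 and clone 19 (horizontal axis). Points are libraries and bars the mean ± SD of 3. Snai1, Snai2, Twist1, Twist2, Zeb2 and Prrx1 are lower in all 6 knockout libraries than in any parental one, Zeb1 is higher, and the guardians stay under 0.5 RPKM. The share of all tested genes with libraries separated in this way was not counted. By limma, 72.4% of all tested genes were called in clone 1 and 69.0% in clone 19.

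Both clones had less RNA of 6 drivers and more of Zeb1. By limma with Benjamini-Hochberg adjustment over all tested genes, Snai1, Snai2, Twist1, Twist2, Zeb2 and Prrx1 fell and Zeb1 rose in clone 1, and the same 7 genes moved in the same directions in clone 19. These calls stand against a high background: of 12568 tested genes, 72.4% were called in clone 1 (32.6% lower, 39.8% higher) and 69.0% in clone 19 (32.3% lower, 36.7% higher), and 25.8% were called lower in both. Being called at all is therefore what most genes showed, and the sizes say more. A fall of at least 2-fold on the log2(RPKM + 0.5) scale was called for 2.67% of genes in clone 1 and 2.32% in clone 19, and Snai1 and Snai2 were among these in both clones, Prrx1 in clone 1. A rise of that size was called for 1.79% and 1.76% of genes, and for none of the drivers. The 2 comparisons share the parental libraries. The median log2 fold change of the 7 drivers was -0.54 in clone 1 and -0.58 in clone 19, beside 0.03 and 0.02 over all tested genes. Prrx1 passed the filter only through the parental libraries, so its being tested already required a difference. In these bulk libraries, fewer cells with a transcript and less RNA per cell cannot be told apart.

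**Figure D2:**
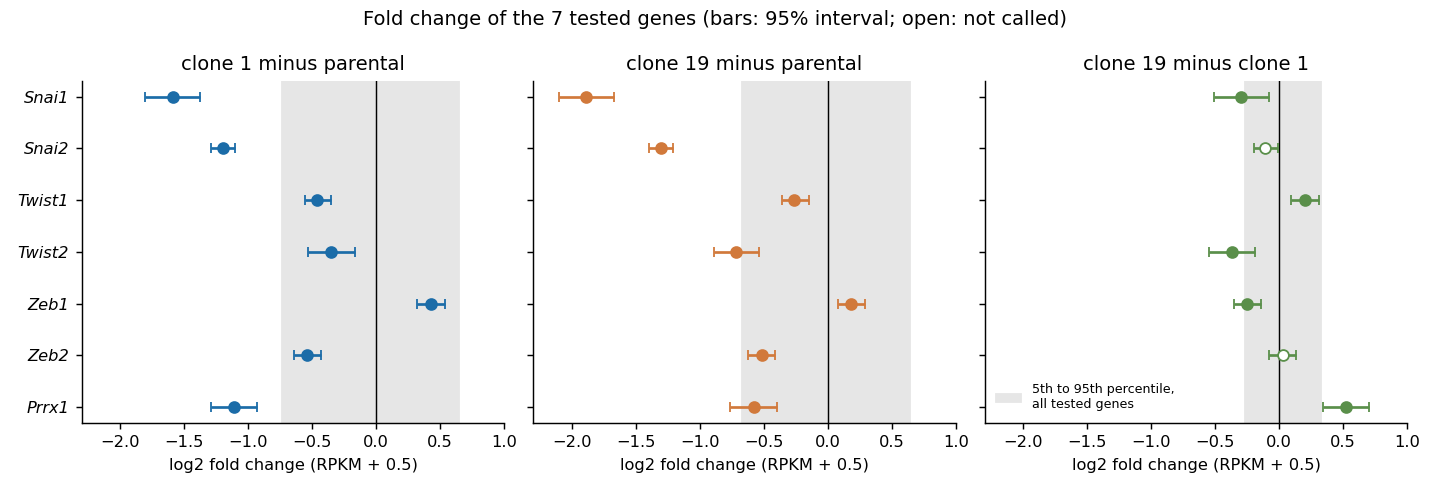
Log2 fold change on the log2(RPKM + 0.5) scale (horizontal axes) of the 7 tested drivers in the 3 comparisons, with 95% intervals from limma. Filled points were called at an adjusted p under 0.05, open ones were not, and the grey band spans the 5th to 95th percentile of all 12568 tested genes. Snai1 (-1.59 and -1.89) and Snai2 (-1.20 and -1.30) lie outside the band in both comparisons with parental cells.

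Snai1, the prototype repressor of E-cadherin, measured 6.56, 6.64 and 6.47 RPKM in parental cells, 1.65, 1.83 and 2.06 RPKM in clone 1, then 1.14, 1.68 and 1.45 RPKM in clone 19. All knockout libraries were below all parental ones, and the clones overlapped each other. The log2 fold change was -1.59 ± 0.098 (SE, adjusted p = 8.0e-08, limma) for clone 1 and -1.89 ± 0.098 (adjusted p = 2.3e-08, limma) in clone 19, which placed Snai1 at percentiles 0.9 and 0.5 of all tested genes. As ratios of mean RPKM the falls were 3.55-fold and 4.62-fold, since the added 0.5 understates changes of low values. These values rested on 298 to 461 reads per parental library, 61 to 103 in clone 1 and 53 to 89 in clone 19. Genes next to Snai1 in the genome did not share the change, as the medians of the 50 nearest tested genes moved by 0.05 and 0.02.

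The promoter of Snai1 is shown because Snai1 had the largest fall of the drivers on the log2(RPKM + 0.5) scale and because it holds the E-box that SNAI and ZEB proteins are known to bind. The sequence is the 250 bases before the RefSeq start site (chr2:167537945-167538194, GRCm38, plus strand), and capitals mark CAGGTG or its reverse complement CACCTG.
Snai1: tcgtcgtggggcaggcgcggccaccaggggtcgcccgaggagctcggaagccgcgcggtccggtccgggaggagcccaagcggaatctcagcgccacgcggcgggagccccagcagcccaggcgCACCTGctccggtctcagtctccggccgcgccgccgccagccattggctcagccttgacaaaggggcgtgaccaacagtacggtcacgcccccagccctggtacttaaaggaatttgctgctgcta
The motif begins 126 bases before the start site. RefSeq windows were read for 5 of the 10 genes (Snai1, Twist1, Twist2, Zeb2 and Prrx1, with 8 windows). Zeb1 was not read, because windows on its chromosome were left out for these genes, though not from the shares over all genes and windows. Of the 5, Snai1 was the 1 gene with CAGGTG on either strand, beside 19.4% of the 27025 genes with a window. By window, 17.2% of all 32851 of this length held it. The looser E-box CANNTG was also found in Snai1 alone of these 5, beside 69.3% of genes and 66.2% of all windows. A match is a description of these letters and not a binding site.

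Snai2, its paralog, which encodes the repressor SLUG, measured 16.0, 16.2 and 16.3 RPKM in parental cells, 6.77, 6.46 and 7.10 RPKM in clone 1, then 6.17, 6.05 and 6.56 RPKM in clone 19. The spread within each group was small, and the knockout libraries lay far below the parental ones. The log2 fold change was -1.20 ± 0.042 (adjusted p = 1.1e-09, limma) for clone 1 and -1.30 ± 0.042 (adjusted p = 6.3e-10, limma) in clone 19. Together Snai1 and Snai2 made up 22.7 ± 0.129 RPKM in parental cells, 8.63 ± 0.471 in clone 1 and 7.68 ± 0.353 in clone 19, and the share of Snai1 in this sum went from 28.8% (28.4 to 29.1%) to 21.4% (19.6 to 22.5%) and 18.4% (15.5 to 21.7%). Sums and shares of paralogs were chosen after the values were seen and carry no test. With 3 libraries against 3, an exact permutation test cannot go below 0.1.

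Twist1, a bHLH factor of mesoderm and neural crest, measured 15, 15.5 and 16.4 RPKM in parental cells, 10.9, 12.0 and 10.9 RPKM in clone 1, then 12.5, 12.9 and 13.6 RPKM in clone 19. The 3 groups did not overlap, with clone 19 between the other two. The log2 fold change was -0.46 ± 0.048 (adjusted p = 6.4e-06, limma) for clone 1 and -0.26 ± 0.048 (adjusted p = 6.2e-04, limma) in clone 19, and lay at percentiles 11.2 and 19.2 of all tested genes. The genes around Twist1 were slightly higher (medians 0.15 and 0.13), and after their subtraction Twist1 stood at -0.61 and -0.39. Twist2, its close relative, measured 16.4, 17.4 and 15.8 RPKM in parental cells, 13, 12.4 and 13.3 RPKM in clone 1, then 8.39, 11.1 and 10.4 RPKM in clone 19. Here too the groups were separate, but clone 19 was the lowest. The log2 fold change of Twist2 was -0.35 ± 0.081 (adjusted p = 0.0025, limma) for clone 1 and -0.72 ± 0.081 (adjusted p = 1.3e-05, limma) in clone 19. Clone 19 thus had more Twist1 than Twist2 and clone 1 the reverse, while the parental libraries overlapped. Twist1 made up 48.6% (47.1 to 50.9%) of their sum in parental cells, 46.6% (45.2 to 49.1%) in clone 1 and 56.8% (53.8 to 59.9%) in clone 19. The sum went from 32.2 ± 0.755 to 24.2 ± 0.245 and 22.9 ± 1.77 RPKM.

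Zeb1 was the 1 driver that rose. It measured 6.20, 5.81 and 5.71 RPKM in parental cells, 8.38, 7.91 and 8.12 RPKM in clone 1, then 6.63, 7.20 and 6.50 RPKM in clone 19. All knockout libraries exceeded all parental ones, and clone 1 exceeded clone 19. The log2 fold change was 0.43 ± 0.048 (adjusted p = 1.1e-05, limma) for clone 1 and 0.18 ± 0.048 (adjusted p = 0.0057, limma) in clone 19. Zeb2, which shares the E-box target of ZEB1, measured 5.60, 5.67 and 5.42 RPKM in parental cells, 3.72, 3.75 and 3.54 RPKM in clone 1, then 3.58, 3.73 and 3.93 RPKM in clone 19. It fell by 0.54 on the log2 scale in clone 1 (SE 0.048, adjusted p = 1.5e-06, limma) and by 0.51 in clone 19 (SE 0.048, adjusted p = 2.7e-06, limma), with the clones overlapping. The genes around Zeb2 were lower too, by medians of -0.21 and -0.23, and with them subtracted the change of Zeb2 was -0.33 and -0.29 (adjusted p = 1.3e-04 and 3.8e-04, limma). Because the ZEB genes moved apart, their sum was 11.5 ± 0.338, 11.8 ± 0.254 and 10.5 ± 0.366 RPKM. The ratio of Zeb1 to Zeb2 went from 1.06 ± 0.0422 to 2.22 ± 0.0986 in clone 1 and 1.81 ± 0.142 in clone 19. The antisense RNA Zeb2os overlaps Zeb2 and was listed at 0.110 to 0.408 RPKM, and whether the counting used strand is not given in the sources used here.

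**Figure D3:**
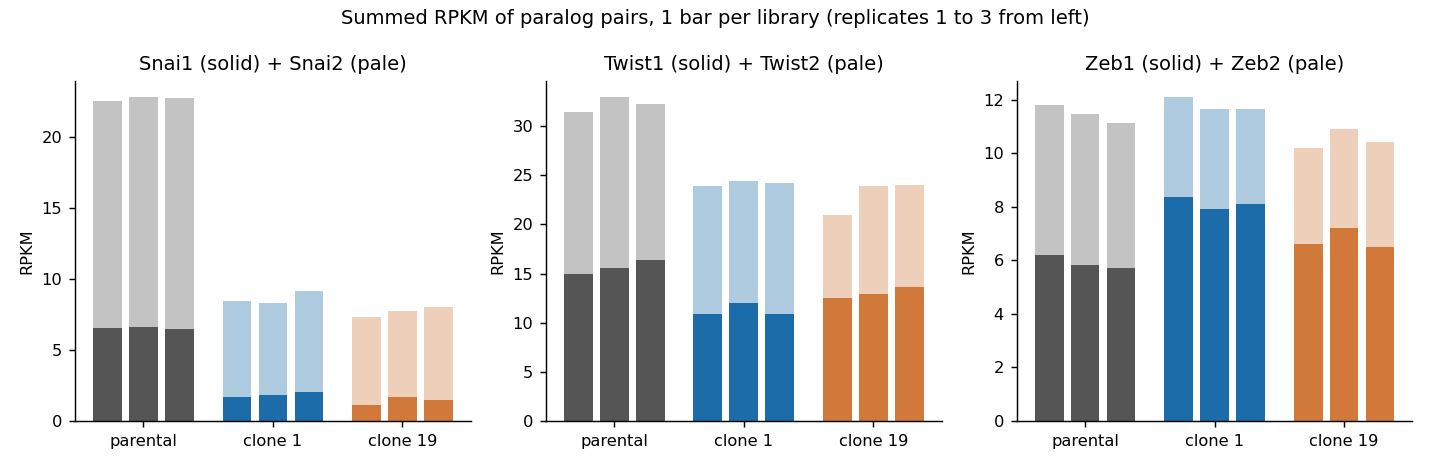
Stacked RPKM (vertical axes, from 0) of the paralog pairs Snai1 and Snai2, Twist1 and Twist2, and Zeb1 and Zeb2, 1 bar per library in 3 groups (horizontal axis). The SNAI sum goes from 22.7 to 8.63 and 7.68 RPKM, while the ZEB sum lies between 10.2 and 12.1 RPKM in all 9 libraries, with a mean Zeb1 share of 51.5% in parental cells, 68.9% in clone 1 and 64.4% in clone 19.

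Prrx1, a homeobox factor of mesenchyme, was the least abundant driver. It measured 1.16, 1.27 and 1.06 RPKM in parental cells, 0.2311, 0.3001 and 0.286 RPKM in clone 1, then 0.627, 0.571 and 0.633 RPKM in clone 19, so that the 3 groups were separate and clone 1 was lowest. The libraries held 262 to 381, 40 to 73 and 117 to 142 reads of Prrx1. As a ratio of mean RPKM it was 4.28-fold lower in clone 1 and 1.91-fold lower in clone 19. On the log2(RPKM + 0.5) scale this was -1.11 ± 0.081 (adjusted p = 3.5e-07, limma) and -0.58 ± 0.081 (adjusted p = 7.2e-05, limma), and with 0.1 added it was -1.77 and -0.83.

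The clones differed from each other in 5 of the 7 drivers, where 43.0% of all genes were called (24.5% lower and 18.5% higher in clone 19). On the log2(RPKM + 0.5) scale none of these 5 differences reached 2-fold, which 0.446% of genes did upward and 0.0159% downward. Relative to clone 1, clone 19 had more Prrx1 (log2 difference 0.52, adjusted p = 5.2e-04, limma) and Twist1 (0.20, adjusted p = 0.0066), and less Twist2 (-0.37, adjusted p = 0.0042), Zeb1 (-0.25, adjusted p = 0.0021) and Snai1 (-0.30, adjusted p = 0.031). The libraries of the clones were separate for Prrx1, Twist1, Twist2 and Zeb1, which was not counted over all tested genes. For Snai1 they overlapped, and the call ended without clone 1 replicate 2 (adjusted p = 0.060, limma) or 3 (0.11), or without clone 19 replicate 1 (0.10) or 3 (0.056). The calls of Snai1, Twist2 and Zeb1 ended with neighbouring genes subtracted (adjusted p = 0.055, 0.051 and 0.085, limma), where the difference of Zeb1 was -0.10. Snai2 (-0.11, 95% interval -0.20 to -0.01, adjusted p = 0.067) and Zeb2 (0.03, -0.08 to 0.13, adjusted p = 0.69) were not called by limma, but Snai2 was without clone 1 replicate 2 (0.030) or clone 19 replicate 3 (0.033).

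By level, the order of the drivers changed with these shifts. In clone 1 it ran from Twist2 (12.9 RPKM) over Twist1 (11.3), Zeb1 (8.14), Snai2 (6.78), Zeb2 (3.67) and Snai1 (1.85) to Prrx1 (0.272), with each neighbour separate from the next. In clone 19 Twist1 (13 RPKM) led, followed by Twist2 (9.95), Zeb1 (6.78), Snai2 (6.26), Zeb2 (3.75), Snai1 (1.42) and Prrx1 (0.610), and here the libraries of Zeb1 and Snai2 overlapped. Zeb1 thus stood below Snai2 in every parental library and above it in every clone 1 library.

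The guardians stayed below the filter, so they were not tested in the main fit. They are given as values, with the reads recovered from the steps between low RPKM values. Grhl2, a grainyhead factor that keeps up epithelial junction genes, had 0.0229, 0.0429 and 0.0611 RPKM in parental cells, 0.0783, 0.0371 and 0.0450 in clone 1 and 0.0275, 0.0242 and 0.0407 in clone 19. These were 21, 22 and 13 reads per group, and the groups overlapped. Ovol1, a zinc finger repressor of Zeb1, had 0.226, 0.183 and 0.344 RPKM in parental cells, 0.237, 0.179 and 0.219 in clone 1 and 0.341, 0.279 and 0.403 in clone 19. Its summed reads were 77 (95% Poisson interval 60.8 to 96.2), 53 (39.7 to 69.3) and 85 (67.9 to 105), and both clones overlapped with parental cells, while clone 19 lay above clone 1. Ovol1 overlaps Ap5b1 in the annotation, which was listed at 6.23 to 7.31 RPKM, so its low level is uncertain. Intervals of reads cover counting error only.

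Esrp1, an RNA-binding protein that sets epithelial splice forms, was found in clone 19 and hardly elsewhere. It had 1, 0 and 0 reads in the parental libraries, 2, 0 and 0 in clone 1 and 8, 7 and 3 in clone 19. In RPKM this was 0.00585, 0 and 0 in parental cells, 0.0223, 0 and 0 in clone 1, and 0.0705, 0.0543 and 0.0313 in clone 19. Clone 19 lay above all other libraries, and the reads of clone 1 came from replicate 1. The sums were 1 read (95% Poisson interval 0.0253 to 5.57), 2 reads (0.242 to 7.22) and 18 reads (10.7 to 28.4). In a parental library without a read, 3 reads would be 0.0235 to 0.0275 RPKM, which is below the value of every clone 19 library. Clone 19 replicate 3 held just 3 reads itself. Its value is higher because it has 24.6 megareads, against 28.0 and 32.8 in those parental libraries. Without the filter limma called Esrp1 higher in clone 19 (log2 fold change 0.14, adjusted p = 0.0047) and not in clone 1 (0.02, adjusted p = 0.73). It called neither Grhl2 nor Ovol1 in either clone. With 0 to 8 reads of Esrp1 per library, the added 0.5 makes up most of each value, so this call carries little weight. Esrp2, its paralog, rose from 1.74 to 2.27 and 2.65 RPKM (0.30 and 0.49, adjusted p = 0.0034 and 1.3e-04, limma).

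Some other epithelial genes of very low level had a pattern like that of Esrp1, and others did not. From the list of 31 epithelial genes known to be repressed by the drivers, 18 were below the filter. They summed to 2.22, 2.15 and 1.91 RPKM in the parental libraries, 2.67, 1.80 and 1.77 in clone 1 and 3.44, 2.98 and 3.70 in clone 19. In 9 of the 18 every clone 19 library was above every parental one, beside 11.4% of the 9111 genes below the filter with any value. In 8 of the 18 clone 1 replicate 1 was above the parental and the other clone 1 libraries, beside 17.5%. Cldn7, a claudin of tight junctions, had 0 reads in the parental libraries, 9, 0 and 1 in clone 1 and 8, 9 and 9 in clone 19. Epcam, the adhesion molecule that defines epithelial cells, had 0, 2 and 2 reads in parental cells, 12, 2 and 0 in clone 1 and 13, 9 and 7 in clone 19. Pkp1 (plakophilin 1) went the other way, with means of 0.221, 0.0624 and 0.0851 RPKM and all knockout libraries below all parental ones, as did Cldn1 with 0.231, 0.0734 and 0.168 RPKM. These 4 genes were chosen after their values were seen. Of the 16 further epithelial factors below the filter, 5 (31.2%) had every clone 19 library above every parental one, and 2 (12.5%) stood out in clone 1 replicate 1. Clone 1 replicate 1 had the fewest reads of all libraries and stands next to the clone 19 libraries in the deposited column order. Without it, clone 1 had no read of Esrp1. The part of a few epithelial cells or of reads from another library in these values was not tested.

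**Figure D4:**
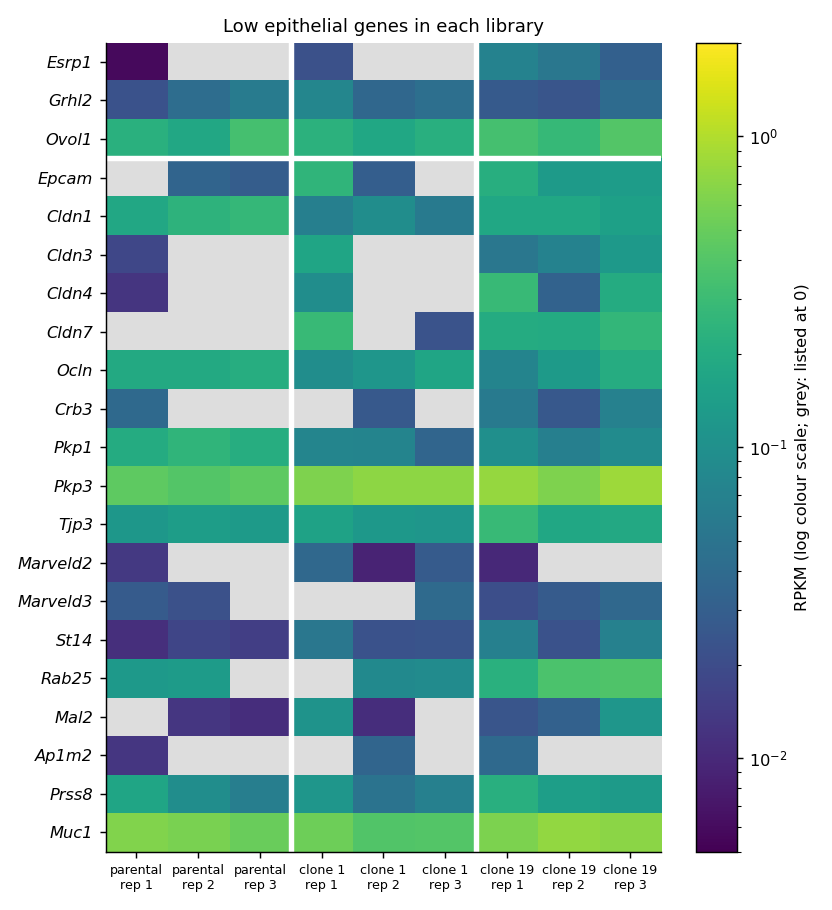
RPKM as colour on a log scale, grey where a gene is listed at 0, for the 3 guardians and the 18 epithelial genes below the filter (rows) in the 9 libraries (columns). Esrp1, Epcam, Cldn3, Cldn4 and Cldn7 show values in clone 1 replicate 1 and in all clone 19 libraries, and are at or near 0 in the others. Pkp1 and Cldn1 go the other way, lower in all knockout libraries than in any parental one. The rows named here were chosen after the values were seen.

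Epithelial genes of measurable level mostly rose while Snai1 and Snai2 fell. Of the 13 tested, 10 rose, 2 fell and 1 was not called in clone 1 (limma, median 0.53). In clone 19, 11 rose, 1 fell and 1 was not called (median 0.74). The rises include Dsp in both clones and Cdh1 in clone 19, whose being tested already required a difference. Among all tested genes 39.8% were called higher and 32.6% lower in clone 1, and 36.7% and 32.3% in clone 19. The medians over all tested genes were 0.03 and 0.02. Lsr, a tricellular junction protein, rose from 13.6 to 26.1 and 28.7 RPKM (0.92 and 1.05), and Cgn (cingulin, of tight junctions) from 5.80 to 9.83 and 13.7 RPKM (0.71 and 1.17). Dsp (desmoplakin) rose from 0.861 to 1.46 and 2.39 RPKM (0.53 and 1.08), but passed the filter only through the clones. Spint2, a protease inhibitor of epithelia, fell from 1.47 to 0.503 RPKM in clone 1 and rose to 5.41 RPKM in clone 19 (-0.98 and 1.57). Cdh1 (E-cadherin), the classic target of these factors, was 0.549 ± 0.0870, 0.521 ± 0.115 and 1.25 ± 0.123 RPKM. The clone 1 value missed the threshold (-0.04, adjusted p = 0.74, limma), whereas clone 19 was higher (0.74, adjusted p = 7.2e-05), having passed the filter only through clone 19. Krt8, Krt18 and Krt19, which also rose, are shared with the mesothelial markers. Of the 13 mesothelial genes tested, 11 rose in clone 1 and 12 in clone 19, against the same shares of all tested genes.

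Promoter windows of 3 epithelial genes are shown because they hold several copies of the E-box read by the drivers and their genes stand at different points of the response. Each is the 250 bases before the RefSeq start site in GRCm38, 5′ to 3′ on the gene's strand, with CAGGTG or CACCTG in capitals: Lsr at chr7:30973470-30973719 (minus strand), Spint2 at chr7:29281978-29282227 (minus strand) and Epcam at chr17:87635729-87635978 (plus strand).
Lsr: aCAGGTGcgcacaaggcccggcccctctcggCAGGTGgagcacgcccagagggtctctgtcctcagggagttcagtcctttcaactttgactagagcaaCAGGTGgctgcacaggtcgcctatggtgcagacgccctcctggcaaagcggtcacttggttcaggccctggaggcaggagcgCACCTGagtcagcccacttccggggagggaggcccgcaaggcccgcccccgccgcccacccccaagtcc
Spint2: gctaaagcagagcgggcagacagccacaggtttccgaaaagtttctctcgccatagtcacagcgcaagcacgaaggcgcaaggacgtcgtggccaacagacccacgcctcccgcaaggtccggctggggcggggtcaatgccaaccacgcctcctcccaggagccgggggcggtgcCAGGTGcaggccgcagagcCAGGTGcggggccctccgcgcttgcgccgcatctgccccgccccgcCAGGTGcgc
Epcam: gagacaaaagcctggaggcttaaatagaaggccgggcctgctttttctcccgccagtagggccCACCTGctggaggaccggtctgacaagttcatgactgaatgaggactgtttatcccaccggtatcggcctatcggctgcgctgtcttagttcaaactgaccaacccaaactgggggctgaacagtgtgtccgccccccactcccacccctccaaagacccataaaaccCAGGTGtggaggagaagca
Lsr has 4 copies, Spint2 has 3 and Epcam has 2. RefSeq windows were found for 22 of the 31 listed epithelial genes, and 15 of these 22 had the motif in at least 1 window, beside 19.4% of the 27025 genes with a window. By window, 17 of 29 (58.6%) held it, beside 17.2% of all. Cgn and Dsp, which rose in both clones, had none in their windows. The list was drawn up from known targets, so a high share describes the list and not this experiment.

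**Figure D5:**
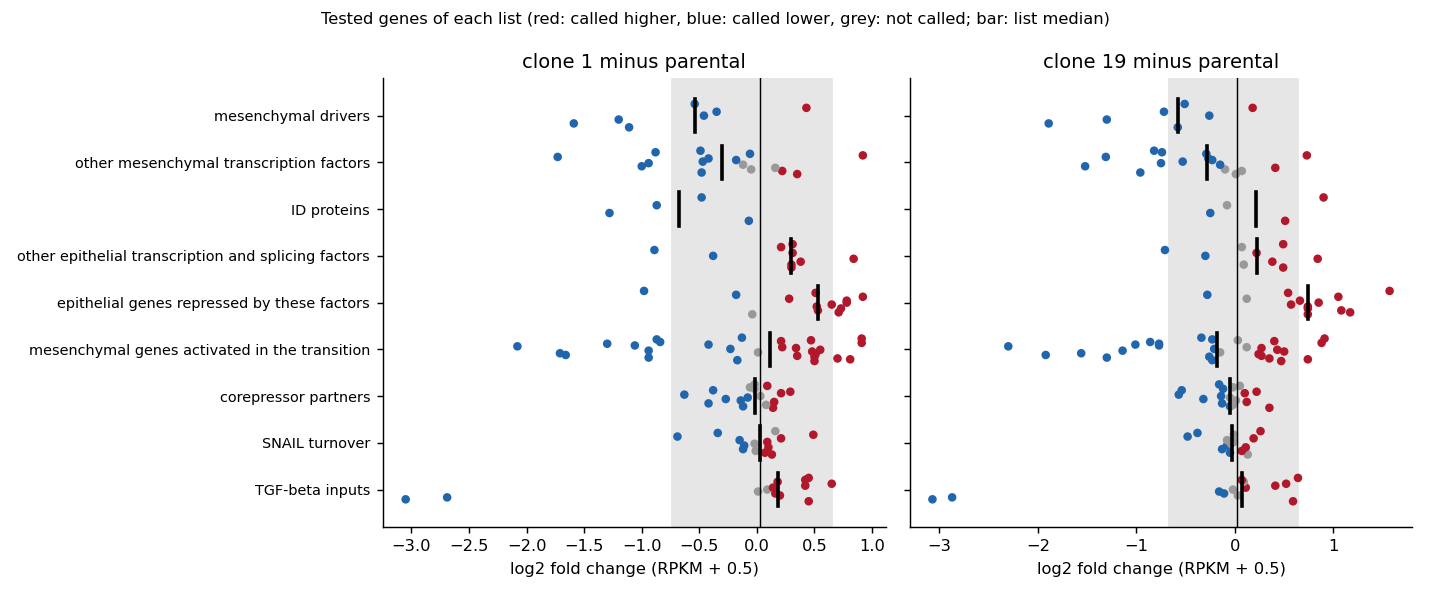
Log2 fold change on the log2(RPKM + 0.5) scale (horizontal axes) of the tested genes of 9 lists (rows) in clone 1 and clone 19 against parental cells, 1 point per gene, with the list median as a bar and the 5th to 95th percentile of all tested genes in grey and the median of all tested genes as a thin line. Red points were called higher, blue lower and grey neither. The drivers and the other mesenchymal factors have medians below 0 and the epithelial genes above 0. The medians of the corepressors and the turnover genes lie close to 0. Single genes of these lists lie further out, such as Loxl3 (-0.63 and -0.57) and Pak1 (-0.69 and -0.48).

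Other transcription factors of the same states were read from lists of related genes. As background, 39.8% of all tested genes were called higher and 32.6% lower in clone 1, and 36.7% and 32.3% in clone 19. Of 26 further mesenchymal factors 16 were tested: clone 1 had 3 higher and 10 lower, and clone 19 had 2 higher and 11 lower (limma; medians -0.30 and -0.28). Sox9 fell from 1.44 to 0.0861 and 0.286 RPKM (-1.73 and -1.31), having passed the filter through parental cells only, and Hmga2, a chromatin protein that promotes Snai1 and Twist1 expression, from 30.3 to 14.9 and 10.2 RPKM (-1.0 and -1.52). Tbx18, a T-box factor of mesothelium and mesenchyme, rose from 8.24 to 16.1 and 14 RPKM (0.92 and 0.73). Hand2 was 2.82, 3.21 and 3.90 RPKM and rose in clone 19 (0.41, adjusted p = 3.2e-04, limma). Of 25 further epithelial factors 9 were tested: clone 1 had 7 higher and 2 lower, and clone 19 had 5 higher and 2 lower (medians 0.30 and 0.22). Gata6 rose from 35.1 to 63.4 and 63.1 RPKM (0.84 in both), and Rbm47, a splicing regulator of epithelia, fell from 1.79 to 0.741 and 0.898 RPKM (-0.89 and -0.71), having passed the filter through parental cells only. Klf4 fell too (-0.38 and -0.30).

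The ID proteins, which bind the partners of bHLH factors such as TWIST1 and keep them from DNA, split the clones. All 4 were called lower in clone 1, as were 32.6% of all tested genes. Id1 moved there by -0.07 only (adjusted p = 0.036, limma), and its libraries overlapped those of parental cells. In clone 19 Id1 and Id4 rose, Id2 fell and Id3 missed the threshold. Id4 was 0.722, 0.382 and 1.79 RPKM and passed the filter only through clone 19, so its being tested already required a difference. Id3 was 133, 72.6 and 126 RPKM in parental cells, clone 1 and clone 19 (-0.87 and -0.08, adjusted p = 6.3e-09 and 0.074, limma). Id2 was 12.3, 4.81 and 10.3 RPKM, and Id1 was 52.2, 49.7 and 74.7 RPKM. Id1, Id2 and Id3 were higher in clone 19 than in clone 1, by 0.58, 1.03 and 0.78 on the log2 scale.

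Mesenchymal genes downstream of the drivers were called in shares to be read against the 39.8% higher and 32.6% lower of all tested genes in clone 1, and the 36.7% and 32.3% in clone 19. Of 28 tested, clone 1 had 14 higher and 13 lower, and clone 19 had 11 higher and 14 lower (limma; medians 0.11 and -0.18). Mmp3, a matrix protease, fell from 4.64 to 0.719 and 0.552 RPKM (-2.08 and -2.3), and so did the fibrillar collagen gene Col5a1, from 59.9 to 18.5 and 15.5 RPKM (-1.66 and -1.92), while S100a4 rose from 128 to 242 and 236 RPKM (0.91 and 0.88) and Tnc (tenascin C) from 20.9 to 39.8 and 39.9 RPKM (0.91 in both). Mmp3 and Lrrc32, a gene named further on, passed the filter through parental cells only.

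For partners and inputs of the drivers the same shares of all tested genes are the background. Of 17 corepressor genes clone 1 had 5 higher and 7 lower, and clone 19 had 4 higher and 8 lower (medians -0.02 and -0.05). Loxl3, an oxidase that stabilises SNAI1, fell from 14.2 to 9.06 and 9.42 RPKM (-0.63 and -0.57), as did Sin3a, a histone deacetylase scaffold (-0.38 and -0.54), and the SNAI partner Ajuba rose (0.14 and 0.35). Of 14 genes of SNAI1 turnover clone 1 had 6 higher and 5 lower, and clone 19 had 4 higher and 5 lower (medians 0.03 and -0.03). Among these Pak1, a kinase that phosphorylates SNAI1, fell (-0.69 and -0.48) and the kinase gene Prkd1 rose in clone 1 (0.49), with -0.01 in clone 19 (adjusted p = 0.84, limma). Of 13 TGF-beta genes tested, clone 1 had 9 higher and 2 lower, and clone 19 had 6 higher and 4 lower (medians 0.18 and 0.07). The ligand gene Tgfb3 rose from 14.5 to 23.0 and 21.1 RPKM (0.65 and 0.52), while the latency genes Ltbp1 (23.3 to 3.18 and 2.76 RPKM, -2.69 and -2.87) and Lrrc32 (-3.05 and -3.07) fell. The 9 listed microRNA genes that restrain ZEB and SNAI factors were at 0 in all libraries, which says little, since 217 of 663 microRNA IDs had any value in these libraries.

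Genes with the most similar pattern were taken as the 3 tested genes with a name at the smallest Euclidean distance over the 9 libraries, after subtraction of the parental mean. For Snai1 they were Col5a1 (distance 0.363), Gdnf (0.422) and Cd276 (0.427), and for Snai2 Svil (0.139), Gpr176 (0.144) and Zfp521 (0.189). For Twist1 they were Ccni (0.112), Zfand3 (0.126) and Rrp36 (0.135), and for Twist2 Klhdc8a (0.205), Pcdh18 (0.231) and Chst2 (0.239). Zeb1 was closest to Pip4k2a (0.112), Dcp2 (0.113) and Med1 (0.115), Zeb2 to Ttyh2 (0.0885), Rrp1b (0.0893) and Trappc10 (0.0995), and Prrx1 to Mfhas1 (0.185), Fam32a (0.218) and Gda (0.219). No driver was among the nearest genes of another. All distances are between log2(RPKM + 0.5) values, where 3 group levels set most of the pattern.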

How the data were processed

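Per the labels' protocols, an RNA-easy kit and the TruSeq RNA kit served for extraction and library preparation. The authors deposited RPKM values for 28059 Entrez IDs in 9 libraries, and the submitters' processing notes name GSNAP, DESeq and the build NCBIM37. Annotation, counting rule and use of strand: not given in the sources used here. IDs were named through the RefSeq table of GRCm38 (24998 matched), and promoter sequences are from RefSeq, GRCm38.

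Tests used limma 3.58.1 in R 4.3.3 with a mean-variance trend on log2(RPKM + 0.5), over the 12568 genes with at least 1 RPKM in at least 3 libraries. All 9 libraries entered 1 model, and p-values were adjusted by Benjamini-Hochberg over all tested genes, with calls at an adjusted p under 0.05. Replicates are not said to be separate cultures, so the p-values reflect the spread among these 9 libraries alone, which may be technical. Relative depth came from the commonest ratio between libraries among low genes (537 to 704 genes), and absolute depth from exon lengths. With it, 99.6% of 4971 low genes came out as whole reads within 0.02. No count test was run on them. The fit was tested on simulated data. The 17 lists hold 219 genes, all found in the table. The members, lists and rules were chosen with earlier results of these data known. Named list genes are up to 4 called genes with the largest change per list, both directions where possible. Alternatives were other pseudocounts, filters and scalings, no trend, fewer groups, a replicate block, neighbouring genes subtracted, libraries left out and a 2-fold threshold.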

Additional observations from a re-analysis of the deposited data

Results flagged for a closer look

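The response of 5 drivers differed between the clones in limma's test of clone 19 against clone 1. The log2 difference was 0.52 for Prrx1, 0.20 for Twist1, -0.25 for Zeb1, -0.30 for Snai1 and -0.37 for Twist2, with adjusted p-values from 5.2e-04 to 0.031. All 5 went the same way against parental cells in both clones, so it is the size of the change that differed. Prrx1 and Twist1 fell further in clone 1, Snai1 and Twist2 fell further in clone 19, and Zeb1 rose further in clone 1. The calls of Snai1, Twist2 and Zeb1 ended with neighbouring genes subtracted.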

How the results depend on the processing

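Against parental cells, all 7 drivers kept their direction and their call under every alternative that holds them except the 2-fold threshold, with adjusted p-values of at most 0.026 (Zeb1 in clone 19 without parental replicate 3). Prrx1 drops out with a filter at 3 RPKM. With a 2-fold threshold 3 drivers were called lower in clone 1, 2 in clone 19 and 0 between the clones, 0 were called higher, and the genes called numbered 561, 512 and 58. Without a filter 2 of the 10 genes were called higher in clone 19, Zeb1 and Esrp1, the latter on 3 to 8 reads per clone 19 library. Between the clones, 1 driver was called higher with a filter at 3 RPKM and 0 lower with neighbouring genes subtracted. The size of the change moved most for Prrx1, from -1.77 to -0.77 in clone 1 and from 0.33 to 0.94 between the clones. Between the clones, Twist1 and Prrx1 stayed called in every alternative that holds them but the 2-fold threshold, and Zeb2 was called in none. With CANNTG in place of CAGGTG, 66.2% of windows held the motif. Same-numbered libraries correlated at -0.04 to 0.12, so the numbers are not taken as pairs. With a replicate block 9037, 8574 and 5169 genes were called against 9096, 8675 and 5404 without, and no driver's call changed. Leaving out 1 library gave 8556 to 9107, 8094 to 8781 and 4434 to 5207 calls. Scaling moved the median of all genes by less than 0.1. The Snai1 difference between clones was also not called without a filter (adjusted p = 0.079, limma) or with only the groups compared (0.068). Depth limits the guardians, with 13 to 22 reads per group for Grhl2.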
